A study of Arabidopsis thaliana with 16 samples.

Results

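Receptor-like protein (RLP) genes of Arabidopsis thaliana were examined for peaks of 3 WRKY transcription factors, WRKY18, WRKY33 and WRKY40. The family list held 54 loci of the 37899 loci on chromosomes 1 to 5, and RefSeq names all 54 as receptor-like proteins. Of the numbers RLP1 to RLP57, 3 are not among them and were not analysed here. The 37899 loci are of every RefSeq gene class, so shares of all loci are not shares of protein-coding genes. All but 2 of the 54 members are protein-coding. A peak was counted for an RLP gene when the nearest gene start, assigned by the authors, was that gene's. By this rule 110 of 16600 peaks in 12 lists belonged to RLP genes. The family was taken up with its peaks in these data already known, so all counts of bound members are descriptions and carry no test.

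Receptor-like proteins are cell-surface proteins with leucine-rich repeats outside the cell, a membrane span and a short tail that lacks a kinase domain. Members with an immune role recognise fragments of fungi, oomycetes or bacteria, and depend on the kinase SOBIR1 and the coreceptor BAK1 to signal. Others act in growth: CLV2 (RLP10) in the control of meristem size and TMM (RLP17) in the spacing of stomata. The bacterial peptide flg22 is perceived by FLS2, a receptor kinase and not a member of this family. WRKY factors bind short W-box motifs in promoters, and WRKY18 and WRKY40 belong to the same subgroup.

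DNA precipitated with an anti-HA antibody was sequenced from Col-0 seedlings that carried WRKY18-HA, WRKY33-HA or WRKY40-HA, 12 days old and grown in long days. The seedlings had 1 µM flg22 for 2 h or were untreated (0 h), with 2 biological replicates of each line and time. Untagged Col-0 wild type (WT) at the same times and replicates was the negative control, and 1 WT library served all 3 lines of a replicate and time. The design text calls the HA lines complementation lines; neither their mutant background, nor the promoter of the tagged gene, nor the number of transgenic lines is given in the sources used here. The untreated samples are all from 0 h, and the effects of flg22, time and handling therefore cannot be told apart. Whole seedlings were used, so binding in a few cells and weak binding in many cannot be told apart.

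Sequencing gave 7 to 20 M reads a library, according to the labels' protocols. The lists held 1653 to 3272 peaks at 2 h and 9 to 1843 at 0 h, with a median of 222 to 678 tags a peak at 2 h and 141 to 528 at 0 h. The deposited peak score has no stated scale, and its lowest value over the lists was 9.999. Scores were used to rank peaks within 1 list. Replicates and times of 1 line are also set side by side as deposited, with that limit, and scores of different lines are not compared. Up to 276 peak numbers are absent from a list, so a gene without a peak is called not listed, not unbound. How the authors treated reads that map to several places is not given in the sources used here, so values at near-identical neighbouring RLP copies are uncertain.

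After 2 h of flg22, 26 of the 54 RLP genes had a peak in some list (11.1% of all loci did over the 12 lists), and 19 had one in both replicates of at least 1 line (5.6% of all loci did). WRKY40 had peaks in both replicates at 16 RLP genes, WRKY18 at 13 and WRKY33 at 9. When only the top 1653 peaks of every 2 h list were kept, as many as the smallest list holds, the counts were 7 for WRKY40, 9 for WRKY18 and 5 for WRKY33, so the order of WRKY40 and WRKY18 turned round. Of all 37899 loci, 3.95% had such a peak for WRKY40, 3.5% for WRKY18 and 3.1% for WRKY33; nothing is read from this, since the family was chosen on these peaks. RLP genes in the single 2 h lists numbered 17 and 16 for WRKY18 (replicates 1 and 2), where 4.14% and 6.61% of all loci were listed. They numbered 13 and 11 for WRKY33 (3.97% and 6.1% of all loci) and 19 and 19 for WRKY40 (4.59% and 7.19%). In the untreated lists they numbered 0 and 6 for WRKY18 (0.652% and 4.31% of all loci), 0 and 0 for WRKY33 (0.0211% and 0.116%), and 0 and 0 for WRKY40 (0.0106% and 0.0475%). At 2 h every list thus held more RLP genes than any 0 h list. The 5 untreated lists without an RLP gene held 260 peaks or fewer, which limits what they could show.

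**Figure D1:**
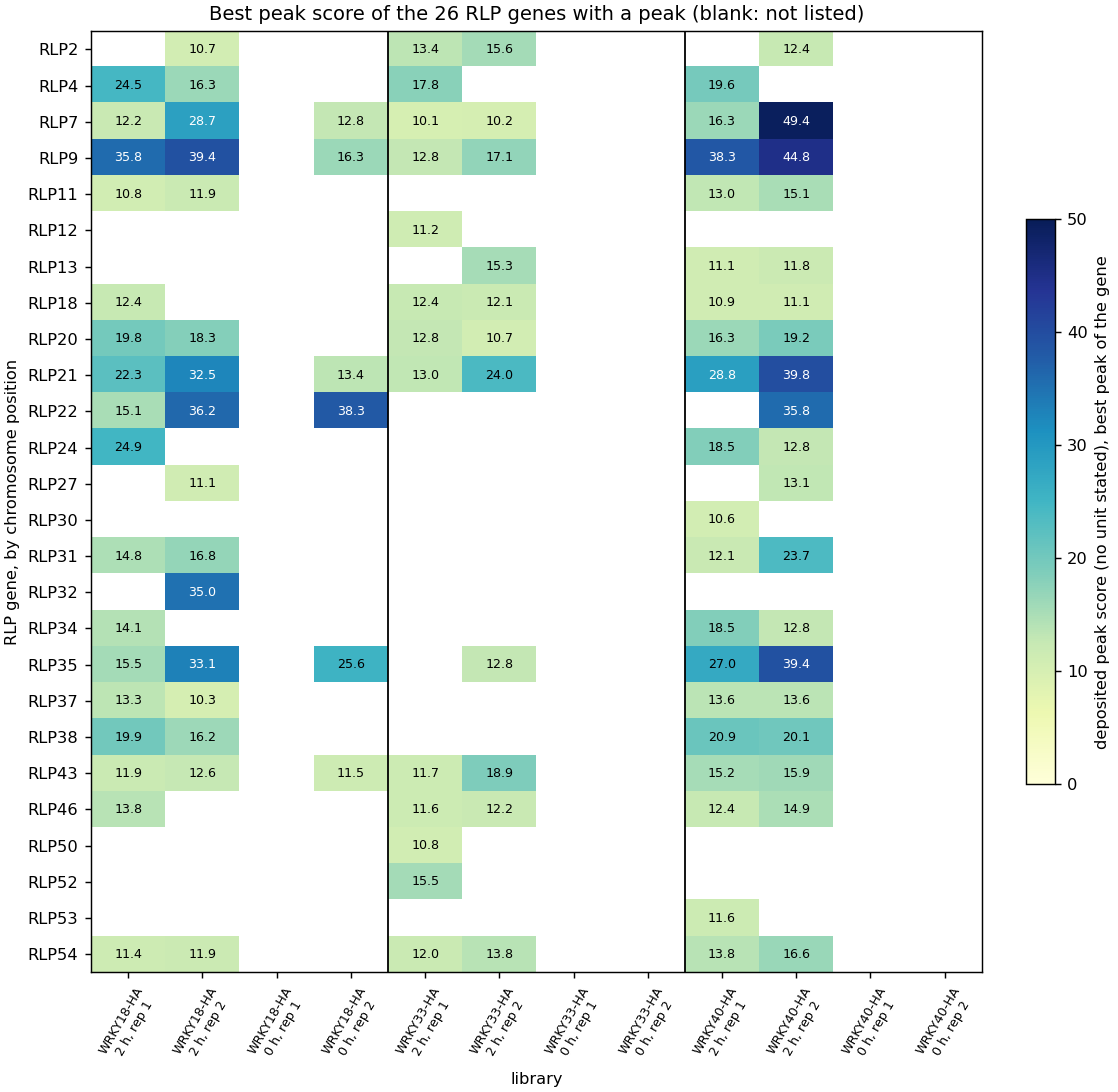
Deposited peak score (number and shade) of the best peak of each of the 26 RLP genes with a peak, by gene (rows, in chromosome order) and library (columns; within each line the 2 h lists stand left of the 0 h lists). RLP7, RLP9, RLP21 and RLP43 were listed in all 6 of the 2 h lists and in WRKY18-HA 0 h replicate 2, and 5 of the 6 untreated lists were blank.

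The peaks formed 30 separate sites when those that overlapped by at least 1 bp were merged, and 4 genes (RLP7, RLP9, RLP11 and RLP38) had 2 sites. Sites mostly lay just before the gene start: 25 of the 30 were centred before it, and 20 of those within 500 bp. Most peaks of any gene did so too: 84.6% of the RLP peaks at 2 h were centred before the start, against 76.3% of all 2 h peaks. Of the 104 peaks at 2 h, 85.6% lay within 1000 bp of the start, against 59.7% of all 2 h peaks. The promoter class of the authors' annotation held 76.9% of the RLP peaks and 54.5% of all peaks, exons held 5.77% and 0.882%, and transcript ends held 4.81% and 16.9%. These shares pool 6 lists that repeat the same sites. The exon share rests on 6 peaks at RLP31 and RLP7 only, and the transcript-end share on 5 peaks of a single RLP9 site. In each of the 6 lists on its own the share within 1000 bp was also higher for the RLP peaks, at 77.8% to 92.3%, than for all peaks, at 58.1% to 62.9%.

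**Figure D2:**
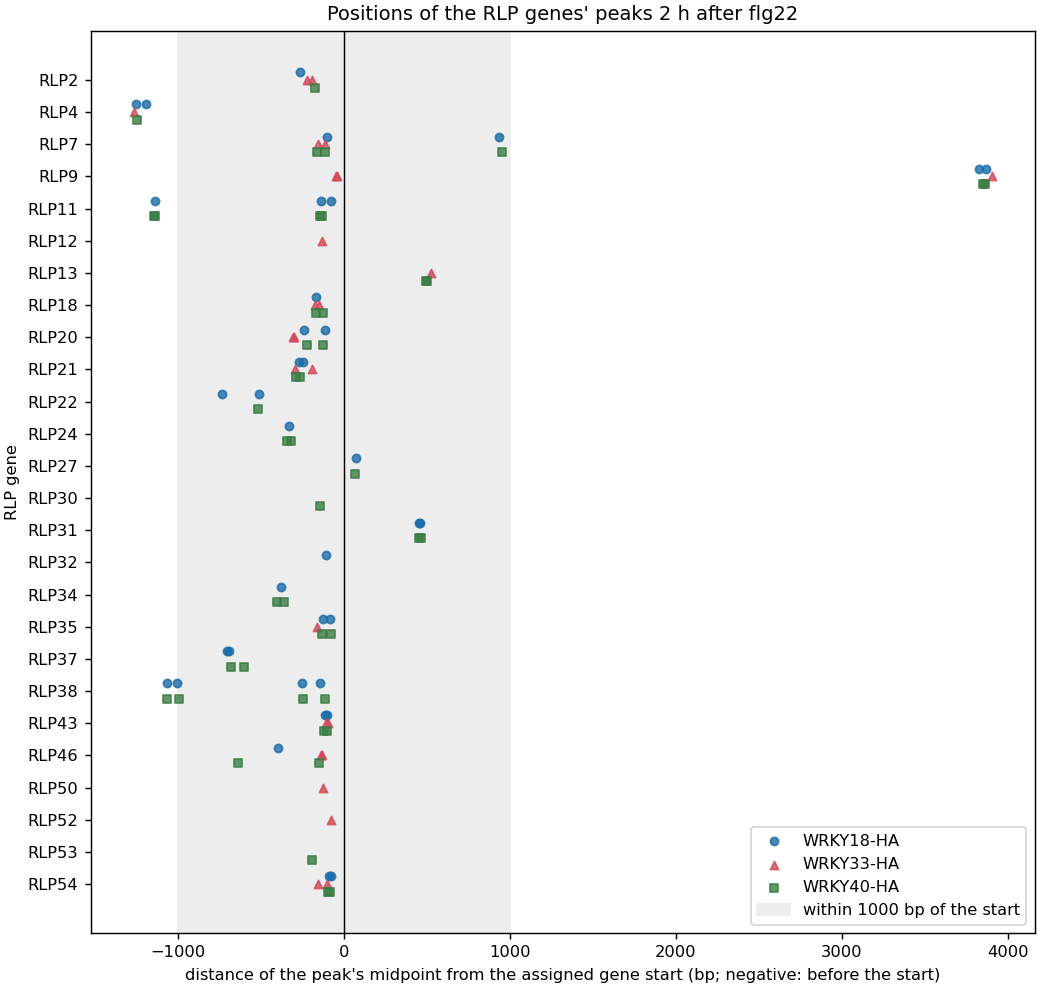
Distance in bp of each 2 h peak's midpoint from the assigned gene start (horizontal; negative is before the start) for the RLP genes with a peak (rows), with circles for WRKY18-HA, triangles for WRKY33-HA and squares for WRKY40-HA. Most points lie in the shaded band of 1000 bp around the start. RLP9 has its WRKY18 and WRKY40 peaks 3828 to 3871 bp behind it, and its WRKY33 replicate 2 list also has a peak there, at 3903 bp.

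RLP peaks were of middling rank. None of the 104 was among the 100 best-scoring peaks of its list, and 4.81% were in the best 10% and 42.3% in the better 50%. Rank percentile is a peak's rank by score as a percentage of the list's length, so strong peaks have low percentiles. Tied peaks share the best rank of the tie. The median percentile of RLP peaks was 55.4 and 47.3 in the 2 h lists of WRKY18 (replicates 1 and 2), 67.0 and 49.1 in those of WRKY33, and 59.1 and 55.0 in those of WRKY40. Tags per RLP peak at 2 h ran from 126 (95% Poisson interval 105 to 150, counting error only) to 2241 (2149 to 2336). Their tag ratio over WT, the authors' fold, had a median of 7.66 and ran from 5.1 to 20.1, against a median of 7.8 for all 2 h peaks.

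**Figure D3:**
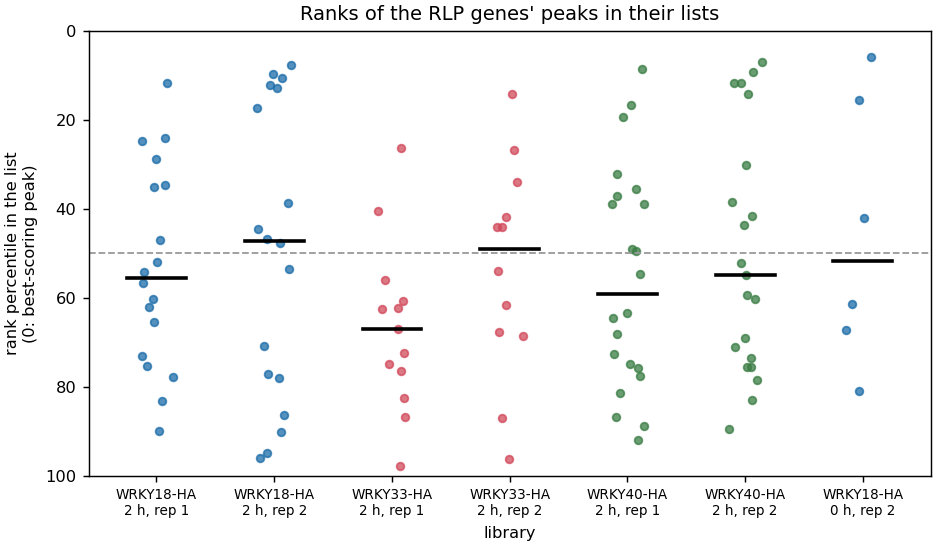
Rank percentile of every RLP peak in its list (vertical; 0 at the top is the best-scoring peak), for the 6 lists at 2 h and the 1 list at 0 h that held RLP peaks; bars mark medians and the dashed line the middle of a list. The medians lie between 47.3 and 67.0, and no list has its RLP peaks gathered at the top.

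Genes listed with all 3 factors come first. RLP7, RLP9, RLP20, RLP21, RLP43 and RLP54 had peaks in both replicates of each line at 2 h (1.56% of all loci did). At 4 of them, RLP20, RLP21, RLP43 and RLP54, it was the same site in all 6 lists. RLP7 and RLP9 were called by gene, and their peaks lay at different sites.

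RLP21 (AT2G25470) had the highest score, in each of the 6 lists, among the 4 sites that all 3 factors shared. Its site spanned chromosome 2 positions 10837859 to 10838442 (build TAIR10), in the promoter. WRKY18 scored 22.3 and 32.5 there at 2 h (replicates 1 and 2), WRKY33 13.0 and 24.0, and WRKY40 28.8 and 39.8. Replicate 2 was the higher in each line. The tag ratios over WT were 10.4 and 14.6 for WRKY18, 6.53 and 11.6 for WRKY33, and 13.2 and 14.9 for WRKY40. The peak maxima of the 7 lists that held this site fell within 30 bp of each other. In WRKY33 replicate 2 it ranked 374 of 2656, the best rank of any RLP peak in that list.

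Its neighbour RLP20 (AT2G25440), with 2 protein-coding genes between them, had a weaker and broader site at positions 10826097 to 10826866. WRKY18 scored 19.8 and 18.3, WRKY33 12.8 and 10.7, and WRKY40 16.3 and 19.2 (replicates 1 and 2 at 2 h). The replicates of each line were close here, with means of 19.0 ± 1.04 for WRKY18, 11.8 ± 1.54 for WRKY33 and 17.8 ± 2.04 for WRKY40 (SD, n = 2). The maxima spread over 293 bp. WRKY33 peaks were centred at −307 and −302 bp from the start (negative is before it), and those of WRKY18 and WRKY40 between −241 and −118 bp. The maxima did not split by factor in this way. That of WRKY33 replicate 2 lay at 10826635, as did that of WRKY18 replicate 1. Only WRKY33 replicate 1 lay apart, at 10826367, and all other maxima fell between 10826614 and 10826660.

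RLP43 (AT3G28890) had the most sharply placed site of those in 5 or more lists. Its peaks lay between chromosome 3 positions 10898784 and 10899103, and the 7 maxima fell within 14 bp, against a median spread of 122 bp over the 9 sites in 5 or more lists. Scores were 11.9 and 12.6 with WRKY18, 11.7 and 18.9 with WRKY33, and 15.2 and 15.9 with WRKY40 at 2 h. The WRKY33 peak of replicate 2 ranked 707 of 2656, in the better part of its list, while the other 5 had percentiles of 54.7 to 77.9. Tag ratios ran from 5.95 to 9.3 over those 6 lists.

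RLP54 (AT5G40170) was listed at chromosome 5 positions 16067339 to 16067987, just before its start. WRKY18 scored 11.4 and 11.9, WRKY33 12.0 and 13.8, and WRKY40 13.8 and 16.6 at 2 h. All 6 peaks were in the weaker part of their lists, with rank percentiles of 52.1 to 83.2.

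RLP9 (AT1G58190) showed the plainest difference in place between the factors. A site at the transcript end, at chromosome 1 positions 21544183 to 21544754, was held by both replicates of WRKY18 (scores 35.8 and 39.4) and of WRKY40 (38.3 and 44.8). It was among the strongest RLP sites, with tag ratios of 10.5 and 16.7 for WRKY18 and 12.1 and 20.1 for WRKY40. WRKY33 had it in replicate 2 with a score of 17.1, and not in the replicate 1 list. At the gene start, positions 21540458 to 21540717, only the WRKY33 lists had a peak, with scores of 12.8 and 15.3. The 2 sites were 3465 bp apart. Whether a peak behind a gene acts on that gene was not tested.

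At RLP7 (AT1G47890) the promoter site, chromosome 1 positions 17643517 to 17644160, was held by both replicates of WRKY33 and WRKY40 and by replicate 2 of WRKY18. WRKY40 scored 16.3 and 49.4 there, and WRKY33 10.1 and 10.2. WRKY18 scored 28.7 in replicate 2. The WRKY40 peak of replicate 2 had the best rank percentile of any RLP peak at 2 h, 6.91; its percentile in replicate 1 was 49.4. The maxima also split by replicate: they lay at 17643740 and 17643776 in replicate 1 (WRKY40 and WRKY33), and between 17644000 and 17644007 in the 3 replicate 2 lists at 2 h. A further site inside the exon, 17644610 to 17645205, was listed in replicate 1 only, with scores of 12.2 for WRKY18 and 12.2 for WRKY40. The WRKY18 call at RLP7 therefore joins 2 different sites, and it is lost when the replicates' peaks must overlap.

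WRKY18 and WRKY40 had 5 more RLP genes in both replicates of each, with WRKY33 not called: RLP11, RLP31, RLP35, RLP37 and RLP38 (1.46% of all loci had such calls). In all, 84.6% of the WRKY18 RLP genes were also called for WRKY40, against 86.1% of the WRKY18 genes over all loci. Of the WRKY40 RLP genes, 68.8% were called for WRKY18, against 76.3% over all loci. Of the 9 WRKY33 RLP genes, 88.9% were called for WRKY40 and 66.7% for WRKY18, against 58.2% and 54.3% over all loci. WRKY33 had a call at 50% of the WRKY40 RLP genes and 46.2% of the WRKY18 RLP genes, against 45.7% and 48.2% over all loci. Lists of 1 replicate share a WT control, so these shares are not independent of it. No difference in binding between factors was tested, and an unlisted gene has no score in that list.

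RLP35 (AT3G11080) had the highest score of these 5 in 3 of the 4 lists; in WRKY18 replicate 1 that was RLP38. Its promoter site spanned chromosome 3 positions 3470047 to 3470646. WRKY40 scored 27.0 and 39.4, with tag ratios of 10.9 and 20.1, and WRKY18 scored 15.5 and 33.1, with tag ratios of 7.39 and 17.9. Replicate 2 was higher with both factors. WRKY33 had the site in replicate 2 only, with a score of 12.8.

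RLP38 (AT3G23120) and RLP37 (AT3G23110) stand next to each other on chromosome 3, and both were listed in all 4 WRKY18 and WRKY40 lists and in neither WRKY33 list. RLP38 had 2 sites. The one at the start, 8229383 to 8230261, scored 16.6 and 16.2 with WRKY18 and 19.2 and 20.1 with WRKY40. The one farther out, at −1070 to −995 bp, 8230346 to 8230880, scored 19.9 and 15.1 with WRKY18 and 20.9 and 18.6 with WRKY40. The sites were 84 bp apart and of similar score, and the second had the lower WT tags, 4 to 8 against 16 to 25. The RLP37 site, 8225104 to 8225918, was weaker, at 13.3 and 10.3 with WRKY18 and 13.6 and 13.6 with WRKY40.

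RLP11 (AT1G71390) also had 2 sites on its upstream side. The site at the start, chromosome 1 positions 26906138 to 26906565, scored 10.8 and 11.9 with WRKY18 and 12.0 and 15.1 with WRKY40. The one centred at −1147 to −1137 bp from the start was held by both replicates of WRKY40 (13.0 and 13.3) and by WRKY18 replicate 2 (10.4). All 7 peaks were in the weaker part of their lists, with the best at a percentile of 59.3. The next gene, RLP12 (AT1G71400), had a peak only in WRKY33 replicate 1, with a score of 11.2.

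RLP31 (AT3G05370) was bound inside its exon, 452 to 466 bp behind the start, at chromosome 3 positions 1537996 to 1538530. WRKY18 scored 14.8 and 16.8 there, and WRKY40 12.1 and 23.7. The place hardly moved over the 4 lists, with maxima within 61 bp, while the WRKY40 percentile was 75.9 in replicate 1 and 30.1 in replicate 2.

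WRKY33 and WRKY40 shared RLP18 and RLP46 without a WRKY18 call. Over all loci, 685 were called for both WRKY33 and WRKY40, and 590 of these for WRKY18 as well, against 8 and 6 RLP genes. RLP18 (AT2G15040) is a transcribed pseudogene in RefSeq. Its promoter site, chromosome 2 positions 6507059 to 6507636, was nonetheless listed in 5 of the 6 lists at 2 h. WRKY33 scored 12.4 and 12.1 there, WRKY40 10.9 and 11.1, and WRKY18 12.4 in replicate 1. The other pseudogene of the family, RLP49, was in no list.

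RLP46 (AT4G04220) was listed at chromosome 4 between 2032560 and 2033502. WRKY33 scored 11.6 and 12.2, at −136 and −142 bp from the start. WRKY40 scored 12.4 at −150 bp in replicate 1, and 14.9 at −640 bp in replicate 2. WRKY18 replicate 1 had a single peak of 943 bp over both places, with a score of 13.8. The WRKY40 peaks of the replicates did not overlap, so this WRKY40 call is by gene only.

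Single factors were called at 6 further genes. The share of all loci called for a single factor is not given here, so nothing is read from this count. RLP4 (AT1G28340), whose product has been placed at cell edges, was called for WRKY18 only. Its site lay between −1267 and −1195 bp from the start, at chromosome 1 positions 9938604 to 9939356. WRKY18 scored 24.5 and 16.3, and replicate 1 also held it for WRKY33 (17.8) and WRKY40 (19.6). It was thus listed in all 3 lines of replicate 1 and in 1 line of replicate 2.

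RLP22 (AT2G32660) was the other gene called for WRKY18 only. WRKY18 scored 15.1 and 36.2 at chromosome 2 positions 13856107 to 13857175, and WRKY40 35.8 in replicate 2. In WRKY40 replicate 1 a wide peak, 13856533 to 13857856 with a score of 13.5, covers the same place and was assigned to the neighbouring gene VAMP725. RLP22 would be a WRKY40 gene as well if that peak were counted for it.

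RLP2 (AT1G17240) was called for WRKY33 only, with scores of 13.4 and 15.6 at chromosome 1 positions 5898624 to 5899189. Replicate 2 of WRKY18 (10.7) and of WRKY40 (12.4) also held the site. RLP3 (RFO2), the next gene, which confers resistance to the wilt fungus Fusarium oxysporum, was in no list.

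RLP13, RLP24 and RLP34 were called for WRKY40 only. RLP13 (AT1G74170) had its peak in the first intron, 495 to 525 bp behind the start, with scores of 11.1 and 11.8 for WRKY40 and 15.3 for WRKY33 in replicate 2. RLP24 (AT2G33020) scored 18.5 and 12.8 with WRKY40 and 24.9 with WRKY18 in replicate 1. RLP34 (AT3G11010) scored 18.5 and 12.8 with WRKY40 and 14.1 with WRKY18 in replicate 1. The equal scores of RLP24 and RLP34 belong to different peaks, with 697 and 512 tags at RLP24 and 435 and 280 at RLP34. At each of the 3 genes 1 other factor was listed in 1 replicate.

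Another 7 genes were listed but never in both replicates of a line. RLP32 (AT3G05650), the receptor of a bacterial translation initiation factor, stood out among them: WRKY18 replicate 2 had a promoter peak with a score of 35.0 and a tag ratio of 11.8, at rank 316 of 2994. No other list, WRKY18 replicate 1 included, had a peak there. RLP52 (AT5G25910), which acts in defence against powdery mildew, was listed in WRKY33 replicate 1 with a score of 15.5. RLP30 (AT3G05360), which takes part in the response to a protein of the fungus Sclerotinia, was listed in WRKY40 replicate 1 with a score of 10.6.

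RLP30 shares its upstream region with AT3G05350. Peaks in both replicates of WRKY18 (19.5 and 21.0) and of WRKY40 (22.6 and 27.7) were located by the authors in the RLP30 promoter and assigned to AT3G05350, whose start was nearer. Counted for RLP30 as well, they would add it to the genes of both factors. RLP12 and RLP50 were listed in WRKY33 replicate 1 only (11.2 and 10.8), RLP53 in WRKY40 replicate 1 only (11.6), and RLP27 in replicate 2 of WRKY18 (11.1) and WRKY40 (13.1). RLP12, RLP50 and RLP52 were the 3 genes listed with WRKY33 and with neither other factor in any list.

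The other 28 members were in no list. Several of the best-known receptors are among them: RLP23, which perceives the nlp20 peptide, RLP42 (RBPG1), which perceives fungal polygalacturonases, RLP1, which responds to a Xanthomonas preparation, RLP3, and RLP51 (SNC2), which acts in basal resistance to bacteria. The growth regulators CLV2, TMM and RLP44, a sensor of cell wall state linked to brassinosteroid signalling, were not listed either. Of the immune receptors named here, RLP30, RLP32 and RLP52 had an assigned peak, each in 1 list. This leaves out the WRKY18 and WRKY40 peaks located in the RLP30 promoter and assigned to AT3G05350.

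Many RLP genes stand in tandem groups, and listed and unlisted members were found side by side. With at most 3 protein-coding genes between members, 30 genes formed 12 groups and 24 stood alone. Of the grouped genes 16 were listed, and of the lone genes 10 (11.1% of all loci were listed). No difference between grouped and lone genes was tested. A listed member occurred in 11 of the 12 groups, and in 4 groups all members were listed: RLP11 with RLP12, RLP20 with RLP21, RLP30 with RLP31, and RLP37 with RLP38. In the group of 5, RLP24 and RLP27 were listed, and RLP25, RLP26 and RLP28 were not. RLP22 was listed while RLP23, with VAMP725 between them, was not. The group of RLP39, RLP40 and RLP41 was in no list.

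Before flg22, RLP genes were found with WRKY18 only, and only in replicate 2. That list held RLP7, RLP9, RLP21, RLP22, RLP35 and RLP43, and 4.31% of all loci; the replicate 1 list held 260 peaks and no RLP gene. All 6 sites were also in the 2 h list of replicate 2, so values can be set side by side within that replicate. RLP22 scored 36.2 at 2 h and 38.3 at 0 h, with tag ratios of 16.9 and 16.5. It ranked 290 of 2994 at 2 h and 105 of 1843 at 0 h. RLP22 was the one site of the 6 with a higher score and a better rank percentile before flg22.

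The other 5 sites had the higher score and tag ratio after flg22. RLP35 scored 33.1 at 2 h, against 25.6 at 0 h, with tag ratios of 17.9 and 13.2. RLP9 scored 39.4 at 2 h, against 16.3 at 0 h, at its transcript end. RLP21 scored 32.5 at 2 h, against 13.4 at 0 h. The gap was smallest at RLP43, with 12.6 at 2 h against 11.5 at 0 h. At RLP7 the tag ratio was 12.8 at 2 h, against 1.71 at 0 h, where WT had 39 tags beside 186 of WRKY18-HA. The 2 h and 0 h lists were called against different WT controls, and with 1 replicate these differences have no replicate check.

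**Figure D4:**
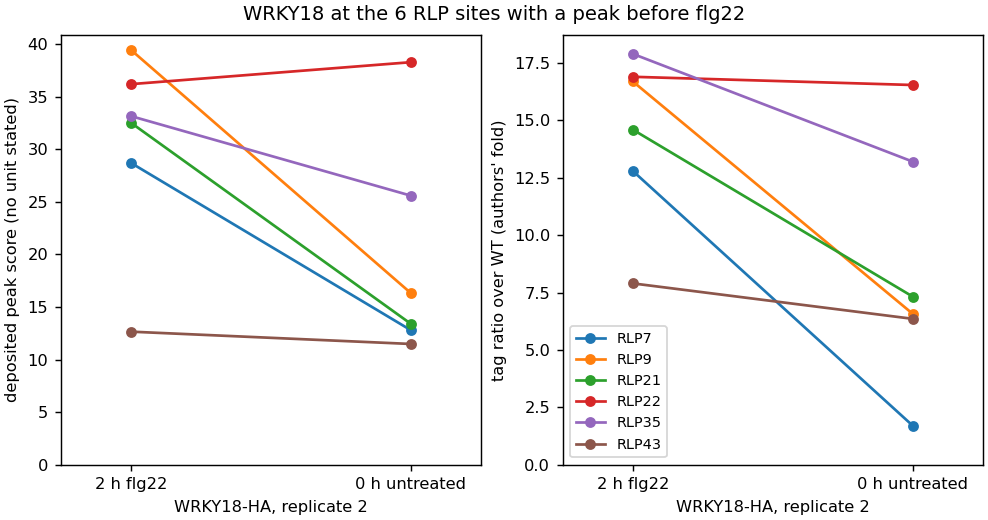
Deposited peak score (left panel) and tag ratio over WT (right panel) of the 6 RLP sites that WRKY18-HA replicate 2 held at both times, with 2 h of flg22 left of untreated 0 h and 1 line per gene. RLP22 stays level (36.2 and 38.3), RLP43 stays low (12.6 and 11.5), and the other 4 lie higher at 2 h.

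Replicate scores at 2 h could be set side by side only at genes listed in both replicates. These were 13 of 20 listed genes for WRKY18, 9 of 15 for WRKY33 and 16 of 22 for WRKY40. Genes absent from 1 replicate, such as RLP32 with WRKY18, do not enter. The score of the best peak in replicate 2 over that in replicate 1, as a log2 ratio, had a median of 0.14 for WRKY18, 0.20 for WRKY33 and 0.22 for WRKY40. Ratios of opposite sign offset each other in these medians, which do not measure closeness. It ran from −0.58 to 1.26, from −0.27 to 0.89 and from −0.53 to 1.60 in those lines. RLP7, RLP22 and RLP35 were over 2-fold higher in replicate 2 with WRKY18, and RLP7 was with WRKY40. RLP4 with WRKY18 and RLP24 and RLP34 with WRKY40 were the largest the other way, at 0.67, 0.69 and 0.69 of the replicate 1 score. Some ratios compare best peaks that do not overlap between the replicates. These are RLP7 and RLP38 with WRKY18, RLP9 with WRKY33, and RLP11, RLP38 and RLP46 with WRKY40.

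Genes that act with RLPs were examined from a list of 23, drawn up with results of these data known. Peaks in both replicates of a line were found at 9 of them (5.6% of all loci): 7 with WRKY18 (3.5%), 7 with WRKY40 (3.95%) and 4 with WRKY33 (3.1%). By role these were all 3 cytoplasmic kinases (PBL30, PBL31 and BIK1), 3 of 6 genes of the intracellular node (EDS1, SAG101 and ADR1), 2 of 3 coreceptor regulators (BIR1 and BIR2) and 1 of 8 partners of CLV2 and TMM (EPF2). None of the 3 coreceptors was among them. SOBIR1 and SERK4 were in no list, and BAK1 had 1 peak, with WRKY33 in replicate 2 (score 16.3).

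The best-ranked of these sites with WRKY18 and WRKY40 lay in an intron of PBL31 in replicate 2 and at EPF2 in replicate 1. PBL31 (AT1G76360) is a kinase that acts in RLP23 signalling. At 2 h WRKY18 scored 31.7 and 78.4 at the PBL31 intron, and WRKY40 36.3 and 96.9, at rank 34 of 3272 in WRKY40 replicate 2. The site was also listed at 0 h, with WRKY18 scores of 12.9 and 50.4 and a WRKY40 score of 11.3 in replicate 2. No RLP gene itself had a peak of that rank. BIR1, which restrains signalling through BAK1 and SOBIR1, was called for all 3 factors: WRKY18 scored 22.1 and 31.3, WRKY33 12.2 and 29.4, and WRKY40 28.8 and 36.5.

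EDS1, a node of immune signalling used by RLP23, was called for WRKY18 (30.9 and 22.2) and WRKY40 (25.9 and 24.1). ADR1, a helper immune receptor of the same node, was called for WRKY18 (17.5 and 24.7) and WRKY40 (18.8 and 26.7). SAG101, a partner of EDS1, was called for WRKY33 only (15.4 and 26.9), as was BIR2 (11.6 and 14.7), which keeps BAK1 from its receptors. Replicate 2 of WRKY18 (13.2) and of WRKY40 (15.8) also held the SAG101 site at 2 h, whereas BIR2 had WRKY33 peaks only. The kinases PBL30 and BIK1, which act below the receptors, were called for WRKY18 (29.5 and 34.3, and 18.4 and 33.6) and WRKY40 (31.8 and 38.3, and 19.5 and 47.1). WRKY33 at 2 h also held PBL30 in replicate 1 (11.7) and a promoter site of PBL31 in replicate 2 (13.2). EPF2, a peptide of the stomatal pathway in which TMM acts, was called for all 3 factors at its transcript end, up to 1754 bp from the start. At 2 h its best peaks scored 42.8 and 48.0 with WRKY18, 22.0 and 15.6 with WRKY33, and 51.2 and 61.4 with WRKY40 (replicates 1 and 2). EPF2 was also listed in both untreated WRKY18 lists, with scores of 21.3 and 30.5. Untreated WRKY18 in replicate 2 also held BIR1 (21.8), ADR1 (18.8), EDS1 (17.7), BIK1 (15.4), PBL30 (14.3) and SAG101 (11.2). Of the called genes, BIR2 alone was in no 0 h list. PAD4 had 1 peak, with WRKY18 at 0 h in replicate 2, BIR3 had 1, with WRKY40 in replicate 2, and ADR1-L1 had 1 each with WRKY18 and WRKY40 in replicate 2. ADR1-L2, CLV1, CRN, CLV3, ERECTA, ERL1, ERL2 and EPF1 had none.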

How the data were processed

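The members and gene lists were chosen with earlier results of these data known. The submitters' processing notes name build TAIR10 and the tools Bowtie 0.12.7, HOMER, cutadapt 1.2.1 and FastQC 0.11.2. No source used here names the peak caller. Each HA library has 1 peak list, per the file headers. The authors deposited a peak score for the HA library and WT, tag counts per peak, ratios (fold over WT of scores and of tags), a −log10 q-value per peak, and the distance to the assigned gene start. Tags, scores and ratios were used as deposited.

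Every peak was kept. A gene was called for a line when both replicates listed it. Peaks were merged at 1 bp of overlap. Symbols and gene order came from a RefSeq table of assembly TAIR10.1, without its coordinates. Coordinates are printed as deposited, without a stated first base (0 or 1). Every RLP gene and every gene of the list of 23 with a peak in both replicates was named by rule, as were the other listed members and the known receptors; the rest of the 23 were named after their values were seen. No test was run. Alternatives were the replicates, thresholds, list lengths, distances, overlaps and assignments. Interval merging was tested on simulated data. Scripts ran in Python 3.11.15 with pandas 2.3.3, numpy 2.4.6, matplotlib 3.10.9 and scipy 1.17.1.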

Additional observations from a re-analysis of the deposited data

How the results depend on the processing

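No paired analysis was possible because the results come from no test. Either replicate in place of both gave 20 RLP genes for WRKY18 and 15 for WRKY33 (13 and 9 with both), 11 in place of 6 for all 3 factors, and 6 in place of 0 for untreated WRKY18. With 1 replicate at a time the counts were 16 to 17 for WRKY18, 11 to 13 for WRKY33, 19 to 19 for WRKY40, 8 to 9 for all 3, and 0 to 6 for untreated WRKY18, where replicate 2 holds all 6. The better-scoring 50% of each list left 5 genes for WRKY18, 0 for WRKY33, 6 for WRKY40 and 0 for all 3; with lists as short as the shortest 2 h list (1653 peaks), WRKY18 kept 9, WRKY33 5, WRKY40 7 and all 3 factors 2, so that WRKY18 then had more RLP genes than WRKY40 (13 and 16 in the full lists). Both alternatives keep fewer peaks by construction. Requiring overlap of the replicates' peaks, by 1 bp or by 50% of the shorter, lost RLP7 for WRKY18 and RLP46 for WRKY40. Counts within 1000 bp, and 2 looser assignments chosen after seeing the data, stayed within 1.5 times. The median mean score of the called genes was 19.0 for WRKY18 (15.1 to 16.8 in single replicates), 12.9 for WRKY33 (12.4 to 13.8) and 15.7 for WRKY40 (15.7 to 16.3). Of the 5 strongest genes per line, 4 or 5 were also the 5 strongest by rank or tag ratio, and 2 to 5 (WRKY18), 3 to 5 (WRKY33) and 4 to 4 (WRKY40) in single replicates. Motif searches and assignment by gene body were not run, since no genome was used here. Of 61 alternative values, 46 were classed as the same and 15 as moved, with a wider limit for counts than for scores. For WRKY18, 9 genes against 13 was classed as the same, and a median score of 15.1 against 19.0 as moved. A gene missing from a list has no value, which limits every absence.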
